A study of Mus musculus with 6 samples.

Results

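The 30 genes described here make, move, store and export cholesterol. They were taken by symbol from a list for cholesterol synthesis, uptake and efflux, and all 30 were among the 33696 genes of the count tables. They fall into 18 enzymes of synthesis, 3 genes that sense sterols, 4 genes of transport and storage inside the cell, and 5 genes of efflux and its control. The study made single-cell RNA libraries of dissociated mouse brain cells with a droplet kit that reads the 3' end of transcripts. Its title concerns how the liver bears on negative emotions under stress. There were 2 libraries in each of 3 groups. One group was wild type given vehicle, the second was wild type given bilirubin, the yellow breakdown product of haem that the liver clears. The third was labelled TRPM2 Mg KO and was also given bilirubin. The labels do not expand Mg, and they state no dose, duration, brain region, age, sex or strain. There was no knockout group with vehicle, so the effect of bilirubin in the knockout cannot be told apart from that of the genotype when the knockout is compared with vehicle. Nothing states that the 2 libraries of a group came from separate animals, so p-values measure the spread between libraries, which may be technical.

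The brain makes nearly all of its own cholesterol, because the blood-brain barrier keeps out the lipoproteins of plasma. Cells build it from acetyl-CoA through the mevalonate and sterol pathways, and when membrane sterol is low the carrier SCAP brings the transcription factor SREBP2 (Srebf2) to the Golgi, where it is released to switch these enzymes on. When sterol is plentiful, INSIG1 holds SCAP back, and oxysterols activate the liver X receptors, whose targets include the exporters Abca1 and Abcg1. Astrocytes are known to supply other brain cells with cholesterol on apolipoprotein E particles, and oligodendrocytes put large amounts into myelin.

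The libraries held 4137 to 24309 barcodes. After filters on cell quality and removal of likely doublets, 79765 cells stayed, with a median of 1149 to 2077 unique molecular identifiers (UMIs) per cell. The median mitochondrial share in replicates 1 and 2 was 1.04% and 0.835% in the vehicle libraries, 7.24% and 0.657% in WT bilirubin, and 5.59% and 3.80% in the knockout. Any 2 libraries shared 12 to 144 barcodes, at most 0.943% of the smaller one. Cells were assigned to 19 classes by 10 marker genes each, and 33651 cells (42.2%) got a class. The 11 classes with at least 20 cells in every library were analysed; a class name below means cells that resemble that type by these markers. They ranged from 9524 microglia to 716 medium spiny neurons. RNA of microglia and of choroid plexus was found in all classes. The 10 microglia markers together reached 1188 to 4492 CPM (UMIs scaled to one total for all libraries) in the other classes, against 19770 CPM in microglia, and the choroid plexus transcript Ttr made up 1.36% to 4.64% of UMIs outside that class. The T or NK class of knockout replicate 2 stood apart. Its markers summed to 690 CPM, against 3279 to 5249 CPM in the other libraries, and its cells held a median of 12643 UMIs, against 2248 to 3933. In microglia Trpm2 had 21.5 and 14.4 CPM with vehicle, 17.3 and 34.8 with bilirubin and 12.9 and 18.7 in the knockout (16 to 94 UMIs a library), so the groups overlapped, and tags from the 3' end that lie beyond a deletion check nothing about the knockout.

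The first comparison set each class against the mean of the other 10, library by library. Levels are given in CPM of the class in each library, scaled by the trimmed mean of M-values (TMM), and differences are log2 differences from 1 fit over all classes with their standard errors (SE). A difference was called at a Benjamini-Hochberg adjusted p under 0.05 over 12383 genes, from edgeR's quasi-likelihood test. Nr1h3 and Tm7sf2 had too few UMIs and were not tested, so 28 of the 30 genes were. Astrocytes had 17 of the 28 higher and 3 lower, where 15% of all genes were called higher and 13% lower. Microglia ran the other way, with 7 higher and 17 lower against a background of 26.1% higher and 31.8% lower. Oligodendrocytes had 14 higher and 3 lower (17.3% and 18.6% of all genes), and choroid plexus cells 15 higher and 3 lower (33.3% and 39.9%). Endothelial cells had 2 higher and 7 lower (16% and 13.3%), ependymal cells 4 and 7 (20.4% and 22.7%), fibroblasts 3 and 4 (23.9% and 27.2%), and T or NK cells 4 and 3 (19.9% and 17.1%). No member was higher in excitatory neurons or medium spiny neurons, where 21.5% and 13.7% of all genes were, and 5 and 6 were lower (20.8% and 14.2%). Mural cells had 1 higher and none lower (4.14% and 0.533%).

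**Figure D1:**
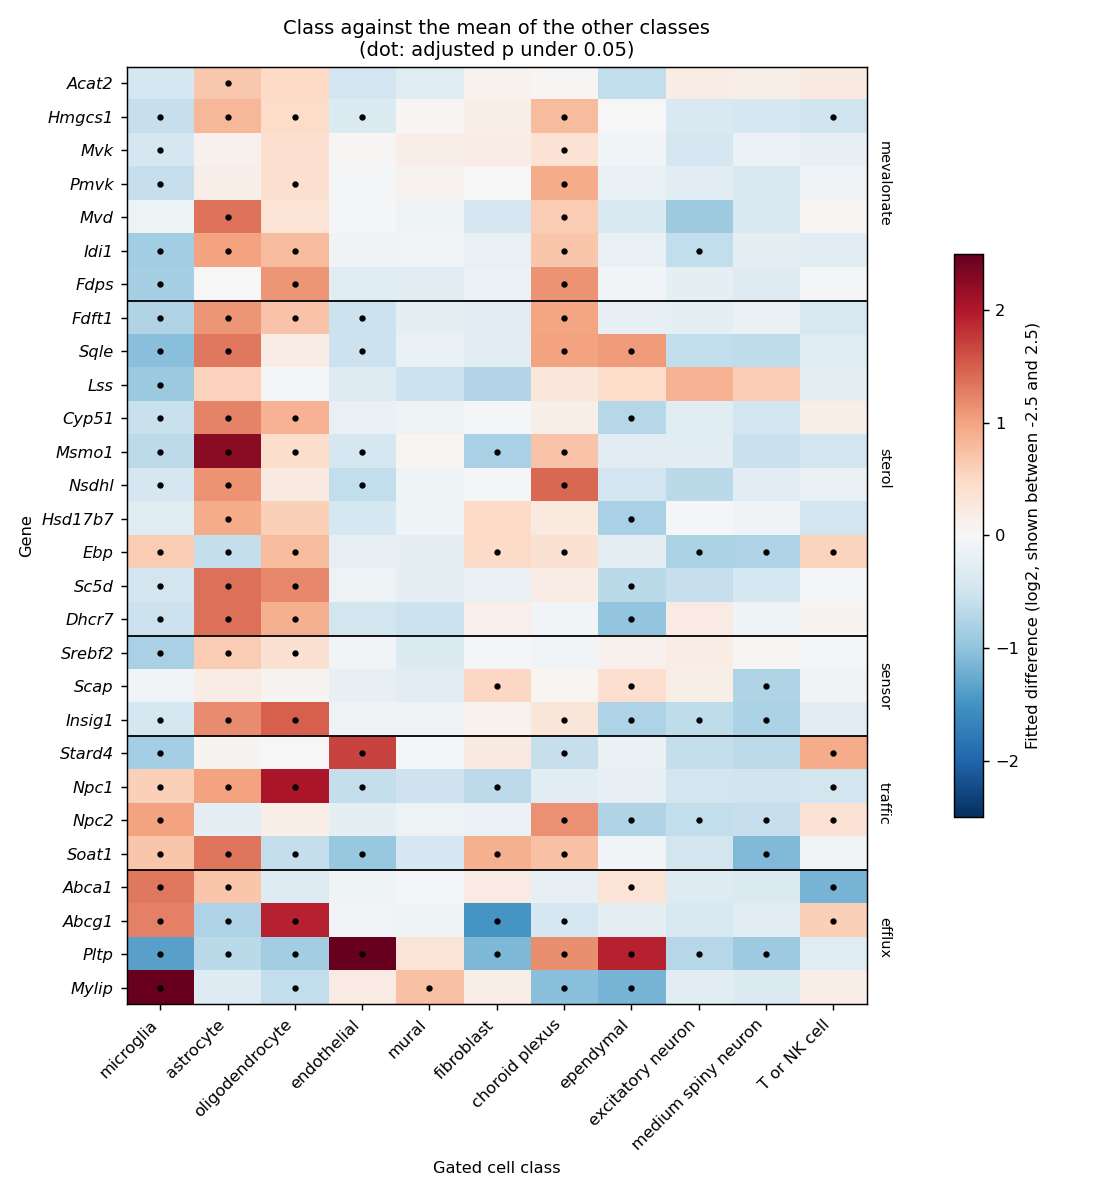
Fitted log2 difference of each tested gene (rows, ordered by role) in each class (columns) from the mean of the other classes; red is higher and blue lower, and a dot marks an adjusted p under 0.05. Most synthesis genes are red in astrocytes and blue in microglia, while Mylip reaches 2.49 in microglia and Pltp 2.55 in endothelial cells.

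The mevalonate enzymes, which turn acetyl-CoA units into the isoprenoid building blocks of sterols, were higher in astrocytes for 4 of the 7 genes. Hmgcs1, which joins acetyl-CoA to acetoacetyl-CoA early in the route, had 157 and 105 CPM in astrocytes of the vehicle libraries, 123 and 163 with bilirubin, and 184 and 124 in the knockout. Microglia had 74.1 and 59.7, 48.9 and 29.6, and 66.1 and 39.7 CPM of it, and its highest value was below the lowest of astrocytes. Against the other classes Hmgcs1 was higher in astrocytes by 0.83 (SE 0.11, adjusted p = 4.55e-09) and lower in microglia by a log2 difference of -0.59. Idi1, the isomerase that makes dimethylallyl diphosphate, was 1.01 higher in astrocytes and had 73 to 110 CPM there, with -0.87 in microglia. Mvd, which decarboxylates mevalonate diphosphate, was 1.36 higher in astrocytes, and Acat2, the thiolase at the head of the route, 0.67 higher. Acat2 may share reads with its near copy Acat3, so its value is uncertain. Fdps, the synthase of farnesyl diphosphate, did not follow astrocytes. It differed by 0.01 there and was 1.10 higher in oligodendrocytes, with 51.1 and 66 CPM, 150 and 65.1, and 139 and 73.5 in the 3 groups. The kinases Mvk and Pmvk differed by 0.11 and 0.14 in astrocytes, below the threshold, and by -0.42 and -0.58 in microglia, where both were called.

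The sterol branch begins with squalene and ends in cholesterol, and 8 of its 10 tested enzymes were higher in astrocytes. The largest difference was that of Msmo1, the methylsterol oxidase that takes off the methyl groups of lanosterol at carbon 4. Its level in astrocytes was 207 and 125 CPM with vehicle, 243 and 425 with bilirubin, and 283 and 181 in the knockout. In microglia it had 24 to 40.7 CPM over the 6 libraries, so the lowest astrocyte value was above the highest microglial one. The fitted difference in astrocytes was 2.26 (SE 0.12, adjusted p = 9.22e-26). Sc5d and Dhcr7, which act at the last steps, were each 1.38 higher in astrocytes, Sqle, the epoxidase that is the second control point of the pathway, 1.31, and Cyp51, the lanosterol demethylase, 1.23. Nsdhl, which acts beside Msmo1, was 1.13 higher, Fdft1, the squalene synthase, 1.11, and Hsd17b7, the last enzyme of demethylation, 0.92. Lss, the lanosterol synthase, differed by 0.57 and was not called.

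Ebp, the isomerase that shifts the double bond of the sterol ring, ran against the rest of the branch. It had 31.2 and 60.3 CPM in microglia with vehicle, 71.4 and 49.3 with bilirubin, and 67.8 and 73.5 in the knockout. In astrocytes it had 16.3 and 31.4, 34.7 and 21.5, and 40.4 and 30.5 CPM, below microglia in each library. It was the 1 synthesis gene higher in microglia (0.63, SE 0.13) and the 1 lower in astrocytes (-0.59, SE 0.16), and it was also higher in 4 other classes, most in oligodendrocytes (0.80). In microglia 13 of the 17 tested synthesis genes were lower, with a list median of -0.55 against -0.09 for all genes, and in astrocytes 12 were higher with a median of 1.01 against -0.04. Sqle was -1.05 in microglia, at 4.41 to 15.6 CPM, the enzyme with the lowest difference there, followed by Lss at -0.93.

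Oligodendrocytes had 10 synthesis genes higher and none lower, with a median of 0.49 against -0.13. Sc5d (1.20), Dhcr7 (0.89), Cyp51 (0.87), Idi1 (0.80) and Fdft1 (0.72) were among them; Msmo1 was higher by only 0.44 and Sqle differed by 0.19, which was not called. Ependymal cells, which line the ventricles, had 1 synthesis gene higher, Sqle, by 1.06 (SE 0.17) at 33.1 to 52.8 CPM, and 4 of 17 lower, with Dhcr7 at -0.98; that is near the 22.7% of all genes called lower there. Endothelial cells had 5 lower and none higher, from -0.35 for Hmgcs1 to -0.61 for Nsdhl. None of these endothelial calls passed in every alternative processing, and those of Hmgcs1, Msmo1 and Sqle were lost without the TMM scaling. Tm7sf2, one of the sterol reductases, had 4.69 to 12.3 CPM in astrocytes, and in microglia 1.3 to 3.69 CPM.

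Sterol genes carry control sequences next to their starts, so the 250 bases before the annotated start were read for the 24 member genes found in the RefSeq promoter table (build GRCm38.p6, 29 starts). The core of the sterol element, TCACNCCAC, and the CCAAT box bound by the partner factor NF-Y were searched on both strands. The core occurred before 1 of the 29 starts (3.45%), that of Hmgcs1, against 1.05% of the 32851 promoters of the table. The CCAAT box occurred before 20 of the 29 starts (69%), against 33.8% of all promoters, and the E box CACGTG before 6 (20.7%), against 6.02%. The first 2 sequences belong to enzymes that were higher in astrocytes and lower in microglia, and the third to Pltp, the gene called in the most classes between groups. Capitals mark the core, in Hmgcs1 alone, and each CCAAT box, which reads ATTGG where it lies on the other strand. They lie at chr13:119690101-119690350 (plus strand), chr8:64733579-64733828 (minus strand) and chr2:164857709-164857958 (minus strand).
Hmgcs1: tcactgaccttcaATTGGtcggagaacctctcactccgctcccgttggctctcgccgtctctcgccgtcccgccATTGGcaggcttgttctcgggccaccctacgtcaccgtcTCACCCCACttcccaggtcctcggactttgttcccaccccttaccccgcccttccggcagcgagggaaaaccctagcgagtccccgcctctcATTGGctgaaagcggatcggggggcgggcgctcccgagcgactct
Msmo1: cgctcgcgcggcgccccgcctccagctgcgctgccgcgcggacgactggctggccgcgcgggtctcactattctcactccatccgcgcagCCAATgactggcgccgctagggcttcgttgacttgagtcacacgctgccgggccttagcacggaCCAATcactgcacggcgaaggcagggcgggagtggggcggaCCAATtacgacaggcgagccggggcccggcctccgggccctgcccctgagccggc
Pltp: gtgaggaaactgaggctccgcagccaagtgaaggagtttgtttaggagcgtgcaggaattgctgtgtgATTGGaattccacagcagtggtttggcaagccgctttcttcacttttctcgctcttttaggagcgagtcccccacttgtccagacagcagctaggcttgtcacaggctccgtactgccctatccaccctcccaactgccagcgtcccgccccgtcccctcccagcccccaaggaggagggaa
In Hmgcs1 the core begins 137 bases before the start and is followed by a CCAAT box at 45. Msmo1 has 3 CCAAT boxes and no core in this window, and Pltp has 1 box. A match is a description of these letters, not a bound site.

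Of the sensors, Srebf2 and Insig1 followed the enzymes. Srebf2 had 85.7 and 64.4 CPM in astrocytes with vehicle, 61.3 and 109 with bilirubin, and 74.8 and 70.3 in the knockout, against 15.6 to 45.5 CPM in microglia. It was higher by 0.64 in astrocytes and lower in microglia at -0.82 (SE 0.13, adjusted p = 3.5e-07). Insig1, which keeps SCAP in the endoplasmic reticulum and is itself a target of SREBP2, was highest in oligodendrocytes by 1.50 (SE 0.14), with 77.9 and 90.6, 83.7 and 130, and 96.1 and 92.8 CPM. It was 1.18 higher in astrocytes and lower in microglia (-0.44), ependymal cells (-0.77) and both neuron classes. Scap differed less, from -0.76 in medium spiny neurons to 0.51 in fibroblasts. Without the TMM scaling the calls of Insig1 in both neuron classes and of Scap in medium spiny neurons were lost. That of Scap in fibroblasts was lost under a stricter gate, and that of Insig1 in microglia when genes of low count were kept.

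The transport and storage genes were split between classes. Npc1, which moves cholesterol out of lysosomes, had 129 and 97.1 CPM in oligodendrocytes with vehicle, 138 and 210 with bilirubin, and 130 and 85.1 in the knockout. All 6 values were above the mean of the other classes, 34.9 CPM, and the difference was 2.03 (SE 0.11, adjusted p = 9.84e-26). It was also higher in astrocytes (1.01) and microglia (0.60) and lower in endothelial cells (-0.59). Npc2, its soluble partner in the lysosome, was instead higher in microglia by 1.01 (SE 0.11), with 412 and 584, 754 and 653, and 639 and 660 CPM. Soat1, which esterifies cholesterol for storage, was higher in astrocytes by 1.34 (SE 0.12), fibroblasts by 0.90, choroid plexus cells by 0.74 and microglia by 0.69. It was lower in medium spiny neurons (-1.10), endothelial cells (-0.95) and oligodendrocytes (-0.59).

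Stard4, a soluble carrier of sterol between membranes, was led by endothelial cells. They had 11.9 and 15.3 CPM with vehicle, 29.6 and 36.2 with bilirubin, and 49.1 and 30.7 in the knockout. The difference from the other classes was 1.69 (SE 0.16, adjusted p = 3.2e-14), and T or NK cells followed at 0.94. Microglia were lower at -0.85, with 2.4 to 9.33 CPM.

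Of the efflux genes, Mylip and Abca1 were highest in microglia, Abcg1 in oligodendrocytes and Pltp in endothelial cells. Mylip, the ubiquitin ligase IDOL that marks lipoprotein receptors for breakdown and is a target of the liver X receptors, had 124 and 137 CPM with vehicle, 143 and 179 with bilirubin, and 134 and 186 in the knockout. Every library was above the mean of the other classes, 30.8 CPM, by a fitted 2.49 (SE 0.12, adjusted p = 2.22e-30). Abca1, the exporter that loads apolipoproteins, had 80.2 and 95.8, 120 and 160, and 137 and 152 CPM in microglia, a difference of 1.32 (SE 0.11). Abca1 was also higher in astrocytes, by 0.69, and lower in T or NK cells (-1.17). Abcg1, which exports sterol to formed lipoprotein particles, was higher in microglia by 1.26 and in oligodendrocytes by 1.92 (SE 0.14). Oligodendrocytes had 69.7 and 51.8, 74.9 and 137, and 53.4 and 81.2 CPM of Abcg1, while it was lower in astrocytes (-0.77) and fibroblasts (-1.47). Nr1h3, which encodes the receptor LXR alpha, had 1.73 to 4.26 CPM in microglia, on 3 to 23 UMIs a library, and was too low to compare between classes.

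Pltp, the phospholipid transfer protein that remodels lipoproteins, stood apart from the other efflux genes. Endothelial cells had 619 and 494 CPM with vehicle, 1668 and 1013 with bilirubin, and 2444 and 1653 in the knockout, and ependymal cells had 435 to 1240 CPM. The differences from the other classes were 2.55 (SE 0.15, adjusted p = 3.43e-24) and 1.92 (SE 0.16). In microglia Pltp was lower at -1.36, with 45.3 to 159 CPM, and it was lower in astrocytes (-0.67), oligodendrocytes (-0.87) and fibroblasts (-1.12).

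**Figure D2:**
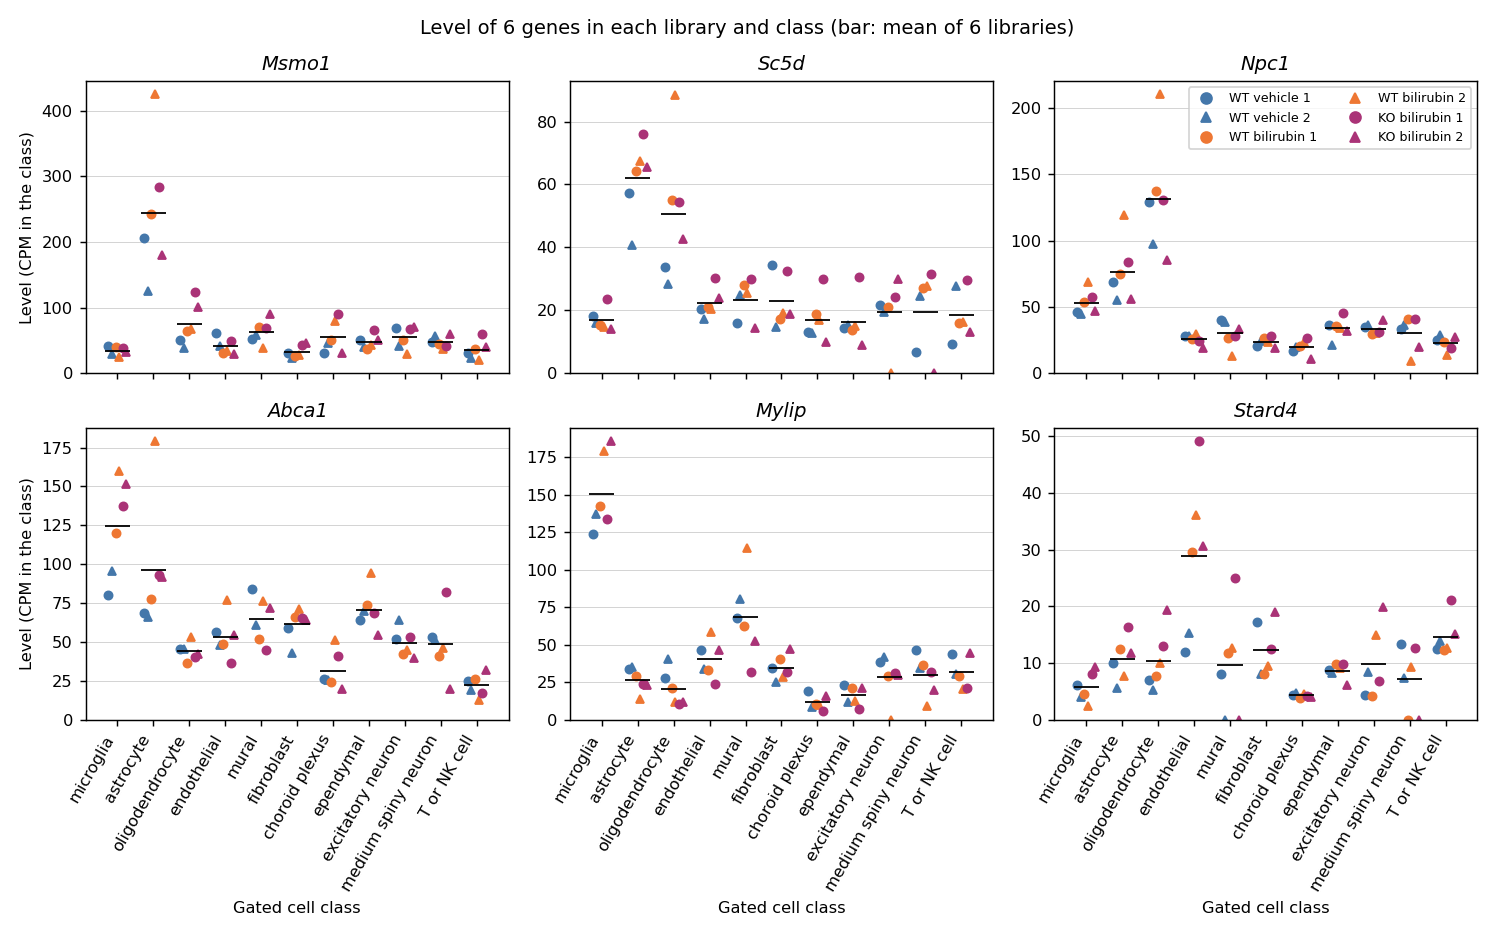
Level in CPM (vertical axis, from 0) of 6 genes in each gated class; a point is 1 library, coloured by group, and a bar is the mean of the 6 libraries. Msmo1 is highest in astrocytes, Npc1 in oligodendrocytes, Abca1 and Mylip in microglia and Stard4 in endothelial cells, at means of 244, 132, 124, 150 and 28.8 CPM.

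The choroid plexus calls depend on how the classes are scaled. In this class 11 of the 17 tested synthesis genes were called higher, with Nsdhl at 1.43 (SE 0.16) and Fdps at 1.13 and a median of 0.63 against -0.14 for all genes. Pltp (1.16) and Npc2 (1.14) were higher too. Ttr alone made up 19.4% of the UMIs there, and without scaling factors the median of all genes in this comparison moved from -0.14 to -0.80. Insig1 (-0.35), Mvk (-0.32), Ebp (-0.30) and Mvd (-0.04) then turned negative, and Hmgcs1, Idi1, Msmo1 and Soat1 lost their calls. Nsdhl and Fdps in choroid plexus kept theirs. The 13 microglial and 12 astrocyte calls of synthesis genes named above kept their direction and call under both other scalings tried.

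Synthesis and efflux were also summed within each class and library, as a description with no test. The log2 ratio of the 18 synthesis genes to the 5 efflux genes was highest in astrocytes, 1.67 ± 0.39 (SD, n = 6 libraries), then in oligodendrocytes, 1.31 ± 0.30, and fibroblasts, 1.02 ± 0.45. It was -0.29 ± 0.37 in microglia, -0.95 ± 0.58 in ependymal cells and -1.63 ± 0.79 in endothelial cells. Neighbours in this order overlapped over the libraries, as astrocytes (1.01 to 2.10) and oligodendrocytes (0.72 to 1.59) did. Each SD pools the 3 groups, so it also holds differences between them. The means for vehicle, WT bilirubin and the knockout were -0.62, -2.10 and -2.17 in endothelial cells. They were -0.37, -1.19 and -1.28 in ependymal cells, and 0.08, -0.55 and -0.41 in microglia. In oligodendrocytes, where WT bilirubin was not below vehicle, they were 1.38, 1.52 and 1.04. Differences between groups in this ratio were not tested. Pltp held a different part of the efflux sum in each class: the sum was 1433 CPM with it and 120 without it in endothelial cells, and 433 and 327 CPM in microglia. Without Pltp the ratio was 0.11 ± 0.43 in microglia and between 1.69 and 3.11 on average in the 10 other classes, and the highest microglial library, at 0.43, was below the lowest library of any other class, 0.79. The efflux sum without Pltp holds Mylip, a ligase that acts on lipoprotein receptors and was 2.49 higher in microglia. A ratio without Mylip was not taken. The 18 synthesis genes summed to 349 CPM in microglia and 1010 CPM in astrocytes, where the efflux genes without Pltp summed to 140 CPM.

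**Figure D3:**
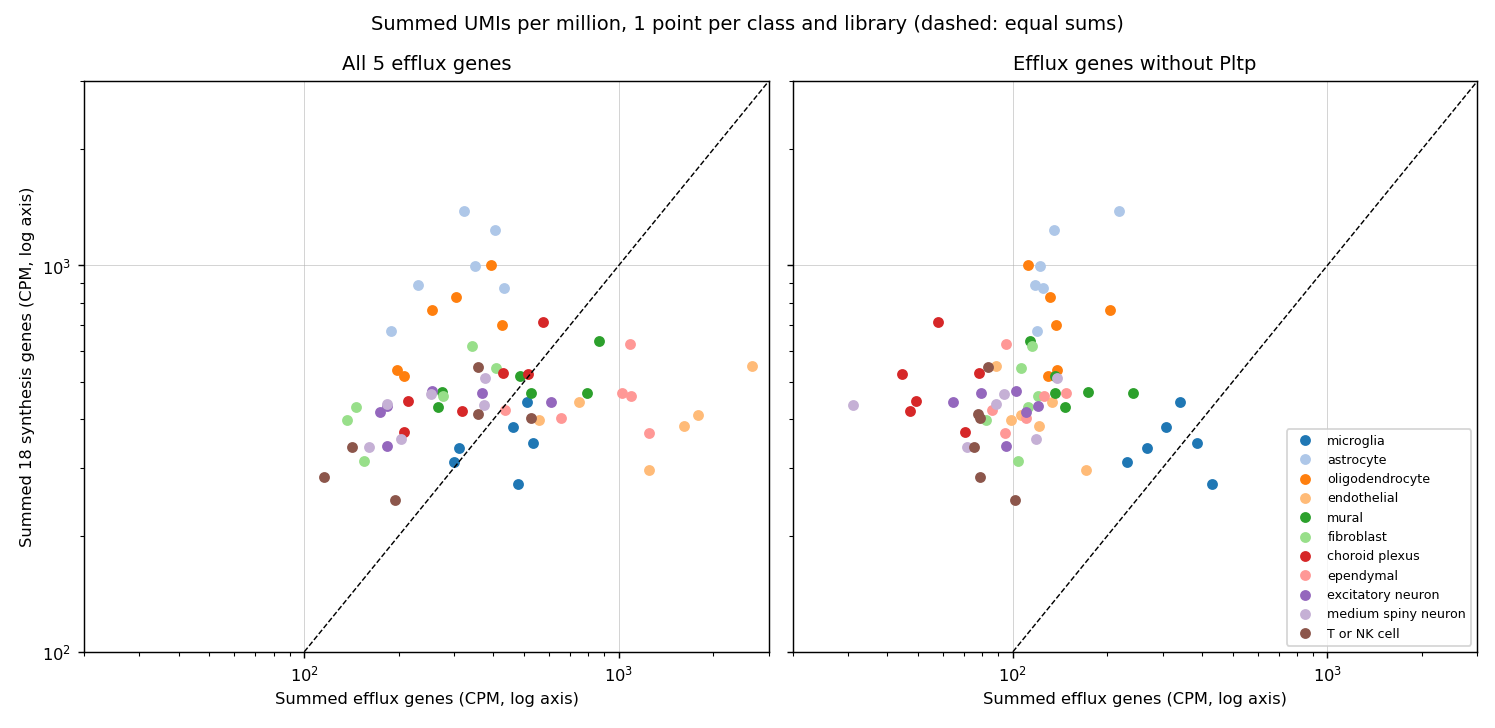
Summed synthesis genes against summed efflux genes in CPM on log axes, 1 point per class and library, with Pltp on the left and without it on the right; the dashed line marks equal sums. On the right the microglial points lie near the line, at a mean log2 ratio of 0.11, and those of the other classes lie above it.

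Of 39 other genes of the pathway, 38 were in the tables and 35 were tested between classes. In astrocytes 12 were higher and 6 lower, where 15% and 13% of all genes were. Lcat, which esterifies cholesterol on lipoproteins, was 3.06 higher at 35.6 to 56.9 CPM, Apoe, the main carrier protein, 1.51, and Srebf1, the lipogenic relative of Srebf2, 1.32. In microglia 8 were higher and 17 lower (26.1% and 31.8% of all genes). Stard3 (1.52), Gramd1a (1.10) and Cyp27a1 (1.64), which bind, move or oxidise sterol, were higher, and Srebf1 (-0.95) and Apoe (-0.41) were lower.

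Oligodendrocytes had 10 of these genes higher and 6 lower (17.3% and 18.6% of all genes), led by the lipid carrier Apod (3.81), the transporter Abca2 (2.81), Cyp27a1 (2.32) and Erg28 (0.97). Endothelial cells had 6 higher and 12 lower (16% and 13.3%), led by the lipoprotein receptors Scarb1 (1.86) and Lrp8 (1.74), the lysosomal lipase Lipa (1.05) and the sterol reductase Lbr (0.90). Cyp46a1, the neuronal enzyme that makes 24-hydroxycholesterol, was higher in medium spiny neurons (1.90) and excitatory neurons (1.47). Ependymal cells had 5 higher and 16 lower (20.4% and 22.7%), with Gramd1c at 2.82 and Srebf1 at 1.56.

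The second comparison, WT bilirubin against WT vehicle, asked what bilirubin changes in wild-type cells. In 239 tests of members over the 11 classes, 2 were called, against 1.54% of tests over all genes. Both were in choroid plexus cells, where 1.74% of 10671 genes were called higher. Pltp had 121 and 165 CPM there with vehicle and 506 and 364 with bilirubin, and the knockout had 541 and 280. The vehicle libraries were below the others, and the log2 difference was 1.60 (SE 0.41, n = 2 libraries per group, adjusted p = 0.00737). Nsdhl had 4.39 and 10.8 CPM with vehicle, 23.1 and 23.5 with bilirubin, and 31.8 and 13.9 in the knockout, a difference of 1.54 (SE 0.45, adjusted p = 0.0227). The 10 choroid plexus markers summed to 2415 and 4671 CPM in the gated cells with vehicle, 4860 and 6682 with bilirubin, and 5173 and 4334 in the knockout, and to 322 CPM in the whole of vehicle replicate 1 against 1615 to 2759 in the other whole libraries. The part of this difference in the results was tested only by a gate that used the same marker reference in all libraries, chosen after seeing the data. Under it the choroid plexus markers came to 4294 and 4392, 4545 and 5138, and 4943 and 4588 CPM, vehicle replicate 1 kept 37 cells, and Pltp differed by 1.56 (adjusted p = 0.0985) and Nsdhl by 0.68 (adjusted p = 0.836). Both calls were also lost without vehicle replicate 1 (Pltp 1.41, adjusted p = 0.421; Nsdhl 1.11, adjusted p = 0.718) and without bilirubin replicate 1 (1.28, adjusted p = 0.11, and 1.49, adjusted p = 0.106), and that of Nsdhl under a stricter gate (1.16, adjusted p = 0.105).

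In astrocytes 17 of the 18 synthesis genes had a difference above 0 with bilirubin, and in oligodendrocytes all 14 tested did, but none was called. Genes measured in the same libraries are not replicates, and the share of all genes above 0 was not counted. The list medians were 0.42 against 0.06 for all genes in astrocytes and 0.54 against 0.04 in oligodendrocytes, and of all genes tested 0% and 0.895% were called. In microglia 8 of the 18 were above 0, with a median of -0.13 against 0.03, and all 5 efflux genes were, with a median of 0.66; 0.0144% of genes were called. Endothelial cells had 6 of 16 synthesis genes above 0, with a median of -0.48 against 0.03, and no call. Choroid plexus cells had 15 of 16 above 0, with a median of 0.60 against 0.05, and Nsdhl as the call given above. Without bilirubin replicate 1 this comparison called 8 members, 6 higher and 2 lower, and without vehicle replicate 1 it called 0.

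The knockout with bilirubin was then compared with WT vehicle, which changes genotype and treatment together. It called 4 of 239 tests, against 0.985% over all genes. Synthesis genes above 0 numbered 15 of 18 in astrocytes, 14 of 14 in oligodendrocytes and 12 of 13 in fibroblasts. They numbered 11 of 18 in microglia and 8 of 16 in endothelial cells. In endothelial cells, where 3.31% of 11942 genes were called higher, Pltp rose by 1.88 (SE 0.48, adjusted p = 0.0215) over the levels given above, and all 4 libraries with bilirubin were above both with vehicle. Stard4 rose there by 1.57 (SE 0.36, adjusted p = 0.0146). Fdps had 18.4 and 26.9 CPM with vehicle, 50.5 and 24.9 in WT bilirubin and 71.2 and 48 in the knockout, a rise of 1.39 (SE 0.37, adjusted p = 0.0259). In mural cells, which are the pericytes and muscle cells of vessels, 0.271% of 6643 genes were called higher. Pltp had 112 and 144 CPM there with vehicle, 394 and 496 in WT bilirubin and 765 and 468 in the knockout, a rise of 2.27 (SE 0.52, adjusted p = 0.0439).

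The make-up of these gated cells moved with the groups. The 10 endothelial markers summed to 5029 and 3894 CPM in endothelial cells of the vehicle libraries, 12210 and 10830 in WT bilirubin and 13860 and 9347 in the knockout. In mural cells they summed to 675 and 451, 1656 and 3216, and 3945 and 2562 CPM, and in the whole libraries to 689 and 464, 1528 and 363, and 2250 and 2390. Median mitochondrial shares in endothelial cells were 1.02% and 0.883%, 5.25% and 0.567%, and 3.29% and 2.82%. With the same gate reference in all libraries, the knockout's endothelial marker sum was 1.52 times that of vehicle instead of 2.60 times. No member was then called: endothelial Pltp differed by 1.30 (adjusted p = 0.231), Fdps by 1.61 (adjusted p = 0.0593), Stard4 by 0.97 (adjusted p = 0.321) and mural Pltp by 2.09 (adjusted p = 0.121). Leaving out vehicle replicate 1, knockout replicate 1 or knockout replicate 2 also ended all 4 calls (adjusted p from 0.0535 to 0.57), and leaving out vehicle replicate 2 ended both of Pltp (0.14 and 0.22). A stricter gate ended the 3 endothelial calls (adjusted p of 0.0814 for Pltp, 0.079 for Fdps and 0.0899 for Stard4) and kept mural Pltp. Mural Pltp was lost when genes of low count were kept (adjusted p = 0.0548) and when doublets were not removed (0.0627). By comparison, 8 members were called without WT bilirubin replicate 1 and 10 without WT bilirubin replicate 2.

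For the knockout against vehicle the fitted difference of Pltp was above 0 in each of the 11 classes, from 1.15 in ependymal cells to 2.60 in excitatory neurons. The classes share the same 6 libraries, so they are not independent. Outside endothelial and mural cells it was not called, with adjusted p from 0.0667 in choroid plexus cells to 0.9999 in excitatory neurons (edgeR). Knockout replicate 2 had 21 excitatory neurons. Endothelial markers in excitatory neurons summed to 692 and 2184 CPM in the knockout, against 462 and 321 with vehicle. In the whole libraries Pltp had 147 and 127 CPM with vehicle, 428 and 205 in WT bilirubin and 572 and 551 in the knockout, and the endothelial marker sums of those libraries are given above. The part of RNA free in the suspension in the differences of the other classes was not tested. For WT bilirubin against vehicle the fitted difference of Pltp was above 0 in all 11 classes too, but it fell below 0 in microglia (-0.37), oligodendrocytes (-0.46), fibroblasts (-0.76), medium spiny neurons (-0.36) and T or NK cells (-1.07) without bilirubin replicate 1.

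**Figure D4:**
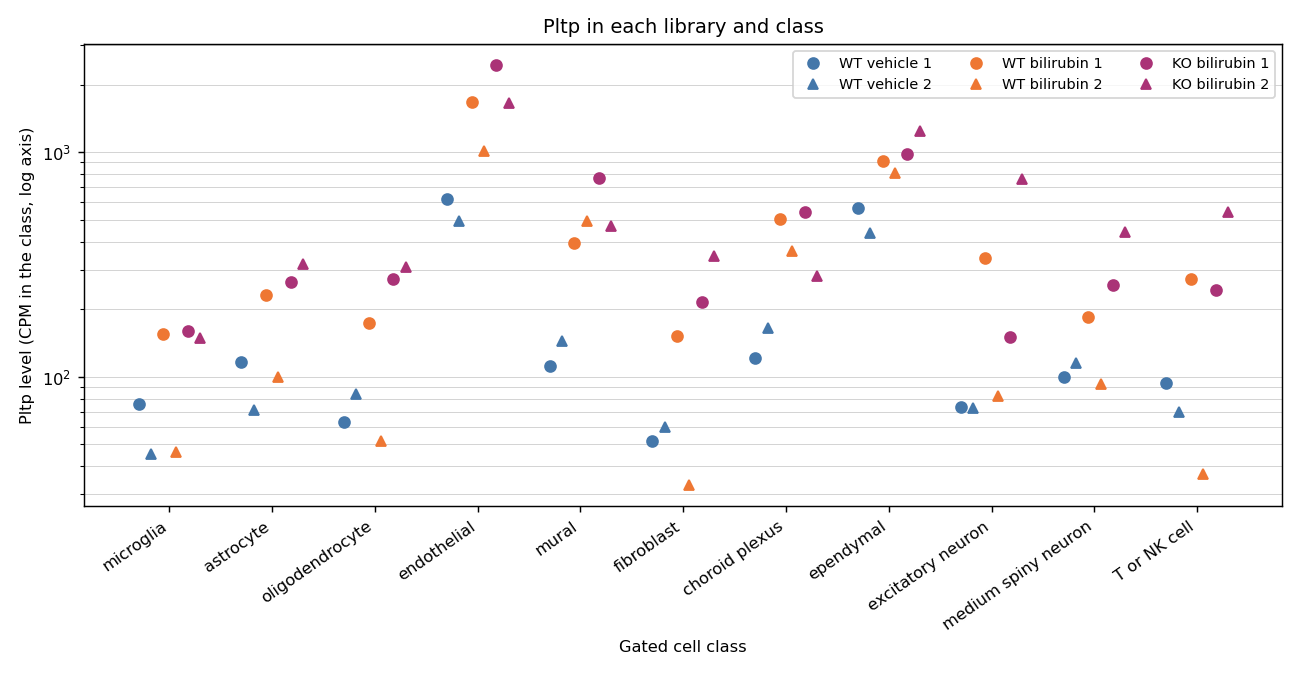
Pltp level in CPM (log axis) in each gated class; a point is 1 library, coloured by group. Endothelial cells run from 494 to 2444 CPM, and in choroid plexus and mural cells the vehicle points, at 112 to 165 CPM, lie below the others.

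The comparison of the knockout with WT bilirubin, which holds treatment fixed, called none of the 239 tests with edgeR and none with DESeq2; 13 had an unadjusted p under 0.05, and the lowest adjusted p was 0.596. Over all genes 0.016% of tests were called. Synthesis genes above 0 numbered 13 of 13 in fibroblasts, 10 of 14 in oligodendrocytes and 9 of 18 in astrocytes. Pltp differed by 0.61 (SE 0.46) in endothelial cells, -0.08 (SE 0.39) in choroid plexus cells and 1.34 (SE 0.45, adjusted p = 0.596) in oligodendrocytes. Without WT bilirubin replicate 1, 5 members were called, 4 higher and 1 lower. An interaction test asked whether a group difference in 1 class was unlike that in the others, and it called none of 924 tests, with 63 at an unadjusted p under 0.05 and a lowest adjusted p of 0.0963 (Abcg1 in oligodendrocytes, WT bilirubin against vehicle). Over all genes it called 0.124%. It called 16 members without WT bilirubin replicate 1.

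**Figure D5:**
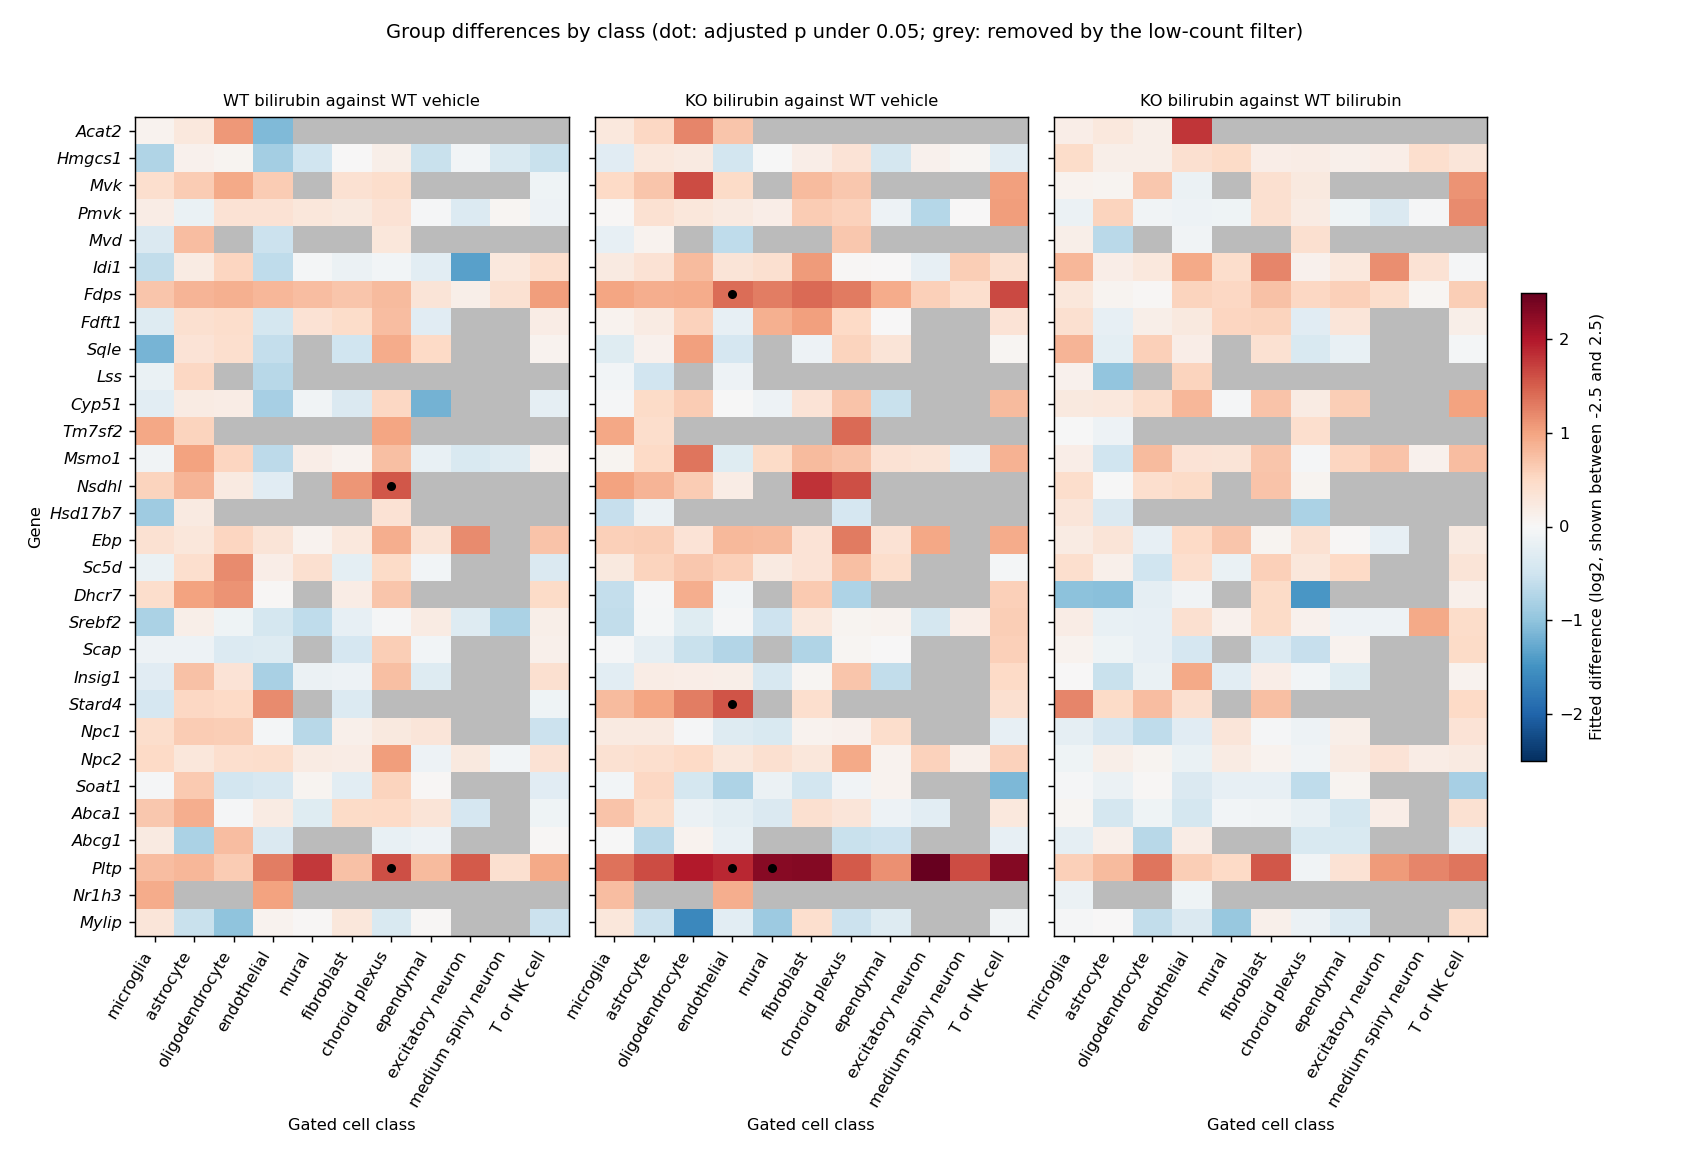
Fitted log2 difference of each member (rows) in each class (columns) for the 3 comparisons between groups, with a dot where the adjusted p is under 0.05; grey cells were too low to test. The dots are Pltp and Nsdhl in choroid plexus cells on bilirubin, and Pltp, Fdps and Stard4 in endothelial cells and Pltp in mural cells for the knockout against vehicle.

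Among the 38 other genes of the pathway, bilirubin against vehicle called Ch25h (2.85, SE 0.71, adjusted p = 0.0209), which makes 25-hydroxycholesterol, and Gramd1b (-1.29, adjusted p = 0.0338), a sterol carrier, in endothelial cells, where 7.4% of genes were called, and Clu (1.35, adjusted p = 0.029) and Lamp2 (1.58, adjusted p = 0.0116) in choroid plexus cells. Gramd1b was also lower in endothelial cells of the knockout against vehicle (-1.15, adjusted p = 0.0434). Ch25h was scarce: the whole libraries had 0.944 and 0.609 CPM with vehicle, 3.05 and 0.681 in WT bilirubin and 0.904 and 3.25 in the knockout. That rests on 15 to 157 UMIs a library, and WT bilirubin replicate 2 lay between the vehicle libraries. These calls of other pathway genes were not run with 1 gate reference or with a library left out. Apoe and Srebf1 had no call in any class or comparison between groups, with a lowest adjusted p of 0.0901.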

How the data were processed

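Each library came as a deposited matrix of counts (whole UMIs per gene and barcode) with lists of barcodes and gene names that hold no measurement. The matrix headers name Cell Ranger 9.0.1; per the submitters' processing notes, Cell Ranger 8.0.0, Scanpy 1.9.6, mm10 and GRCm39 were used, with no role given, so the build behind the counts is unclear. Cells needed 500 UMIs, 300 genes and a mitochondrial share no higher than 15%. Scrublet's (scanpy 1.11.5) own thresholds called 0% to 48.0% doublets, so the highest scores were removed instead, 0.8% per 1000 barcodes. A cell got a class with at least 3 of its markers and a marker share of UMIs at least 2 times that of its library. This relative share also had to be at least 2 times that of any other class with at least 3 markers in the cell. Classes with fewer markers in the cell were not compared. These thresholds were set after seeing cell numbers per class. In the class of microglia 10.0% of cells, and of choroid plexus 21.9%, lay near the limit on the share over the library, at under 2.2 times. Cells near the limit on the ratio to other classes were not counted. UMIs were summed per library and class and tested, two-sided, with edgeR 4.0.16 in R 4.3.3 (filterByExpr, TMM; 3 residual degrees of freedom between groups, 50 between classes, with library as a term, and 30 for the interaction). CPM levels are scaled within a class, so they need not follow the fitted differences between classes. On simulated counts in microglia, WT bilirubin against vehicle, 93% of 4-fold and 12% of 2-fold changes were found (13217 genes). The simulation gave all genes the same spread setting and left out genes with few UMIs, so these shares need not hold for the data. In the data Pltp differed by 2.29 in fibroblasts, knockout against vehicle, and was not called (edgeR, adjusted p = 0.72). The members, lists and markers were chosen with earlier results of these data known. All 30 members are named, and of the other pathway genes up to 4 called ones with the smallest p per comparison and class, and Apoe and Srebf1; some genes of that list are not reported here. Alternatives were another scaling, DESeq2 1.42.0, no filter, stricter cells and gate, no doublet removal, each library left out, 4 libraries only and a replicate block.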

Additional observations from a re-analysis of the deposited data

How the results depend on the processing

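With bilirubin against vehicle, 2 members were called; a stricter gate gave 1, 1 gate reference for all libraries 0, and leaving out single libraries 0 to 8. The knockout against WT bilirubin called 0, with 1 when genes of low count were kept and 0 to 5 over the libraries left out. The knockout against vehicle called 4, with 2 under the stricter gate (of the 4 calls, mural Pltp alone), 8 with only the 4 libraries compared, 0 with 1 gate reference and 0 to 10 over the libraries left out; without either knockout library none of the 4 passed, and the calls then made were in other classes. The interaction called 0, with 1 under 1 gate reference and 0 to 16 over the libraries left out, where a left-out library leaves 1 in its group, assumed to vary like the others. Other scaling, DESeq2, stricter cells and doublets kept in left these counts within 1.5 times, though mural Pltp was lost with doublets kept in.

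The count of 125 class calls stayed within 1.5 times in each alternative, and 80 of the 125 passed in all of them. In microglia Mvk, Dhcr7, Sc5d and Nsdhl each lost their call when genes of low count were kept, and Dhcr7, Nsdhl and Mvk also when single libraries were left out. Without scaling factors the choroid plexus differences of Insig1 (-0.35), Mvk (-0.32), Mvd (-0.039) and Ebp (-0.30) reversed. Pltp on bilirubin ranged over the libraries left out from -0.37 to 1.42 in microglia, -0.46 to 1.25 in oligodendrocytes, -0.76 to 1.45 in fibroblasts, -0.36 to 0.79 in medium spiny neurons and -1.07 to 1.75 in T or NK cells.

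The ratio of synthesis to efflux as a difference of mean log2 CPM, which weights genes equally, was -1.82 in microglia, 0.27 in astrocytes, -0.20 in oligodendrocytes, -1.42 in mural cells, -0.43 in fibroblasts, -0.28 in choroid plexus cells, -0.74 in excitatory neurons, -0.63 in medium spiny neurons and -0.61 in T or NK cells. The ratio of summed counts, without Pltp, was 0.11 in microglia, 2.85 in astrocytes, 2.34 in oligodendrocytes, 1.796 in endothelial cells, 1.69 in mural cells, 2.09 in fibroblasts, 3.11 in choroid plexus cells, 2.06 in ependymal cells, 2.19 in excitatory neurons, 2.36 in medium spiny neurons and 2.13 in T or NK cells. The ratio of summed counts with Pltp was 0.032 in mural cells, and -0.0096 with 1 gate reference. Among the classes listed in the form of mean log2 CPM, astrocytes alone stayed above 0 and microglia were lowest. That list leaves out endothelial and ependymal cells, so it gives no rank over all classes. Their summed ratios with Pltp (-1.63 and -0.95) were below that of microglia (-0.29).

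No pairing of libraries with the same number is stated in the labels. Their deviations from the group means correlated between groups from -0.57 to 0.19, which does not settle whether they were paired. With a replicate block 2, 0 and 3 members were called in the 3 comparisons, and mural Pltp lost its call (adjusted p = 0.084).

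None of the group differences named for members passed in every alternative. Those of Ch25h, Gramd1b, Clu and Lamp2 were not run in any alternative. The 6 member calls were lost with 1 gate reference, and endothelial Fdps and Stard4 and choroid plexus Nsdhl also with DESeq2 (adjusted p of 0.0891, 0.059 and 0.136). No scaling factors, no Pltp, and 1 gate reference were chosen after seeing the data. With 2 libraries per group, changes of 2-fold were mostly missed in simulated counts, so a difference not called may be there.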
